A study of Homo sapiens with 12 samples.

Results

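The genes described here encode the proteins of the large (60S) subunit of the cytosolic ribosome. They were 43 protein-coding genes named RPL or RPLP, picked by symbol from a gene table that listed 58302 genes by a rule that reads only names. The values came from DLD1, an established human colorectal cancer line, at passage 5. One group carried shNC, a control hairpin, and the other carried a hairpin labelled shNAT10. NAT10 is the acetyltransferase that makes N4-acetylcytidine (ac4C) in RNA. The labels covered 12 libraries, of which 6 were inputs, RNA sequenced without the ac4C antibody, with 3 replicates per hairpin. The authors deposited levels as FPKM (fragments divided by the length of the gene and by the size of the library) for those 6 inputs, and a table of ac4C peaks that differed between the hairpins. The labels did not give the hairpin sequence or promoter, nor whether replicates were separate cultures or whether a group was 1 clone. Every p-value therefore measures only spread between these libraries. Those from limma, the linear-model fit used below, take that spread mostly from other genes of like level.

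The large subunit joins amino acids into protein at a centre made of ribosomal RNA, and the growing chain leaves through a tunnel whose walls and exit are lined by several of these proteins. Its proteins are made in the cytoplasm, carried into the nucleus and built onto ribosomal RNA in the nucleolus. The mRNAs of most of them begin with a cytosine followed by a tract of pyrimidines, called a 5′ terminal oligopyrimidine (TOP) tract, through which their translation follows growth signals. NAT10 is also known to acetylate ribosomal RNA of the small subunit.

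NAT10 itself went against its label. Its FPKM was 1.24, 3.95 and 2.89 in the shNC libraries, in replicate order, against 0, 28.1 and 31.4 in the shNAT10-labelled libraries. Replicates 2 and 3 of the latter stood above every shNC library, and an exact two-sided permutation test between the groups gave p = 0.400 (where 3 against 3 cannot go below 0.1). The FPKM denominators recovered from the values were 3284599 to 3426872 fragments in shNC and 1197889 to 1498313 in the shNAT10-labelled libraries, with 2.47 as the ratio of the group means. Each of 10 epithelial markers was above 0 in some library, though KRT20 only in shNC replicate 3, at 0.158. Their summed FPKM was 5124 to 5393 in shNC and 8151 to 8737 in the shNAT10-labelled libraries. KRT8, a keratin, carried most of that sum (3112, 3774 and 3294 against 5643, 5573 and 5866), while EPCAM, a surface marker of epithelium, was at 226, 370 and 262 against 38.3, 80.3 and 128. Of 9 epithelial markers tested 0 passed, and 5 had positive and 4 negative differences. Leukocyte markers summed to 0 in shNC and 0.521 to 5.86 in the other group, with CD3E and LYZ at 0. Fibroblast and muscle markers summed to 1.12 to 6.34 and 24.4 to 87.6. Most of the latter came from TAGLN in replicate 1 (68.9), ACTA2 in replicate 2 (22.0) and VIM in replicate 3 (78.0). Endothelial and erythroid markers summed to 0 and 0 to 0.241, and neural markers to 0 to 3.29 and 0. The part of depth or of these markers in the values that follow was not tested. In bulk RNA, fewer cells of a type and less RNA per cell cannot be told apart.

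RefSeq (GRCh38.p14) gave the start of 36 of the 43 genes, with a window from 250 bases before to 50 bases after it. RPL5, RPL7, RPL8, RPL23, RPL23A, RPL30 and RPL37 had no window. A start was called TOP-like when the first base was C and at least 4 more C or T followed. By that rule 26 of 36 genes (72.2%) had a TOP-like start, beside 5.14% of the 27305 genes of the table with a window, 6.24% of the protein-coding ones and 76.0% of 25 small-subunit genes. The following starts are shown because they span the range, from the longest tract to none, and because several belong to the most abundant genes or to genes with an ac4C peak. Each runs from 10 bases before the first transcribed base through the first 20 transcribed bases, 5′ to 3′, with the pyrimidine run that begins at the first base in capitals.
RPL39: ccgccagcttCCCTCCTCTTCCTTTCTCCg
RPL7A: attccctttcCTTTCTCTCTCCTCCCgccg
RPLP2: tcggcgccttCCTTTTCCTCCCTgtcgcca
RPL26: gcgtgtagttCTCTTCCCTTTTgcggccat
RPL34: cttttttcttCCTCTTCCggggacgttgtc
RPL28: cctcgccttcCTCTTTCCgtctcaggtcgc
RPL13A: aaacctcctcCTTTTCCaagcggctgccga
RPL3: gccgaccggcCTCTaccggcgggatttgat
RPL19: tctccccttcgcagataatgggaggagccg
RPL27: gtgaaaggttagcggaagtgtccttctttc

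In GRCh38.p14 the RPL39 stretch is chrX:119791611-119791640 on the minus strand and the RPL7A stretch is chr9:133348208-133348237 on the plus strand. The RPL19 stretch is chr17:39200273-39200302 on the plus strand and the RPL27 stretch is chr17:42998409-42998438 on the plus strand. RPL39 had the longest run, 19 bases, and the median over the 26 TOP-like genes was 8. RPL3 fell just outside the rule with a run of 4 bases, and the shortest run inside it was 6. RPL19 and RPL27 have no C at the first base of their RefSeq start. A run of the same kind began within 5 bases of the start in 31 genes (86.1%), RPL19 among them and RPL27 not, beside 25.2% of all genes. At the stricter length of C and at least 6 more pyrimidines, 20 genes (55.6%) had the tract, beside 2.68% of all.

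**Figure D1:**
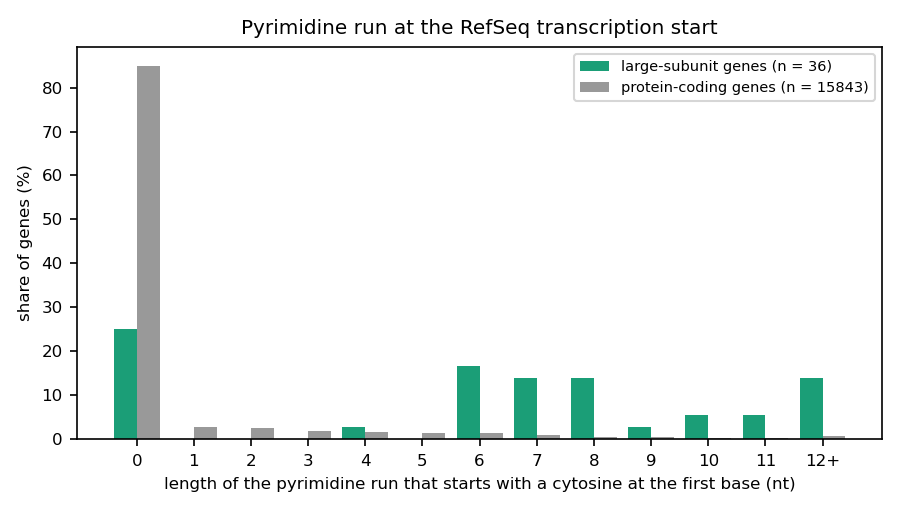
Share of genes (%, vertical) by length of the pyrimidine run that starts with a cytosine at the RefSeq first base (nt, horizontal), for 36 large-subunit genes and 15843 protein-coding genes. A run of 0 was found for 25.0% of large-subunit genes and 85.0% of protein-coding genes, and 13.9% and 0.764% had a run of 12 or more.

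Other letters of the promoter were searched on both strands of the 300 bases. CCGGAAG, the core bound by ETS-family factors such as GABP, was in 13 of 36 genes (36.1%), beside 12.2% of all genes and 36.0% of small-subunit genes. CCAAT, the box bound by NF-Y, was in 16 (44.4%), beside 39.7%. TATAAA was in 3 (8.33%: RPL3, RPL7A and RPLP0), beside 14.0%. None of these motifs contains another, and a match is a description of the sequence only. Median mean FPKM was 118 over the 26 genes with a TOP-like start and 195 over the 9 measured genes without one.

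These genes were among the most abundant mRNAs of the cells. Of the 43, 42 were above 0 in at least 1 library, and 40 were above 0 in all 6. RPL17, whose product lines the exit tunnel, was listed at 0 in all 6, and so was the readthrough gene RPL17-C18orf32, which overlaps it. Whether counting dropped fragments shared by overlapping genes is not stated in the sources, so a listed 0 may not mean that the mRNA was missing. Mean FPKM over the 6 libraries ran from 13.6 to 925 among the 42, a range of 68.2-fold, with a median of 129, beside a median of 6.59 over the 8140 protein-coding genes with a mean of at least 1. Of the 100 most abundant protein-coding genes 10 were large-subunit genes, of the top 500 35 and of the top 1000 40. Together they took 1.42% ± 0.168 (SD, n = 3) of all FPKM in shNC and 1.31% ± 0.126 (SD, n = 3) in the shNAT10-labelled libraries.

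RPL19, a protein beside the tunnel exit, was the most abundant. Its FPKM was 838, 931 and 907 in shNC, against 1036, 871 and 965 in the shNAT10-labelled libraries. It was the highest member in 4 of 6 libraries and the steadiest, with 1.24-fold between its lowest and highest library. RPL13A, also known as part of a translational silencing complex outside the ribosome, stood at 861, 574 and 650 against 757, 751 and 389. RPL27 stood at 399, 536 and 294 against 432, 914 and 635, and RPL7A at 533, 402 and 273 against 315, 332 and 846. For each of these 4 genes the groups overlapped. RPL32 was close among the shNC libraries, at 330, 310 and 329, and spread from 215 to 561 (561, 215 and 449) in the other group. RPL23A, the docking site of the signal recognition particle at the tunnel exit, stood at 575, 355 and 350 against 311, 161 and 339.

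The lowest levels belonged to RPL30, RPL26, RPL22, RPL36, RPL14 and RPL27A. RPL30, part of a bridge to the small subunit and in yeast a regulator of its own splicing, was at 37.9, 0 and 4.28 in shNC, against 0, 35.3 and 3.94 in the shNAT10-labelled libraries, so 1 library of each group was listed at 0. RPL26, which also binds p53 mRNA, was at 0.359, 0.246 and 0 in shNC, against 2.33, 119 and 0.675 in the other group. Its 119 came from 442 recovered fragments in replicate 2, while the other 5 libraries held 0 to 8. RPL36 was at 24.2, 4.96 and 53.8 against 22.5, 4.41 and 79.0, with low and high libraries in both groups. RPL14 was at 46.2, 23.0 and 30.1 against 63.8, 51.2 and 15.6. RPL27A was at 13.8, 21.8 and 46.9 against 114, 14.9 and 26.5, where replicate 1 labelled shNAT10 stood alone above the rest.

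**Figure D2:**
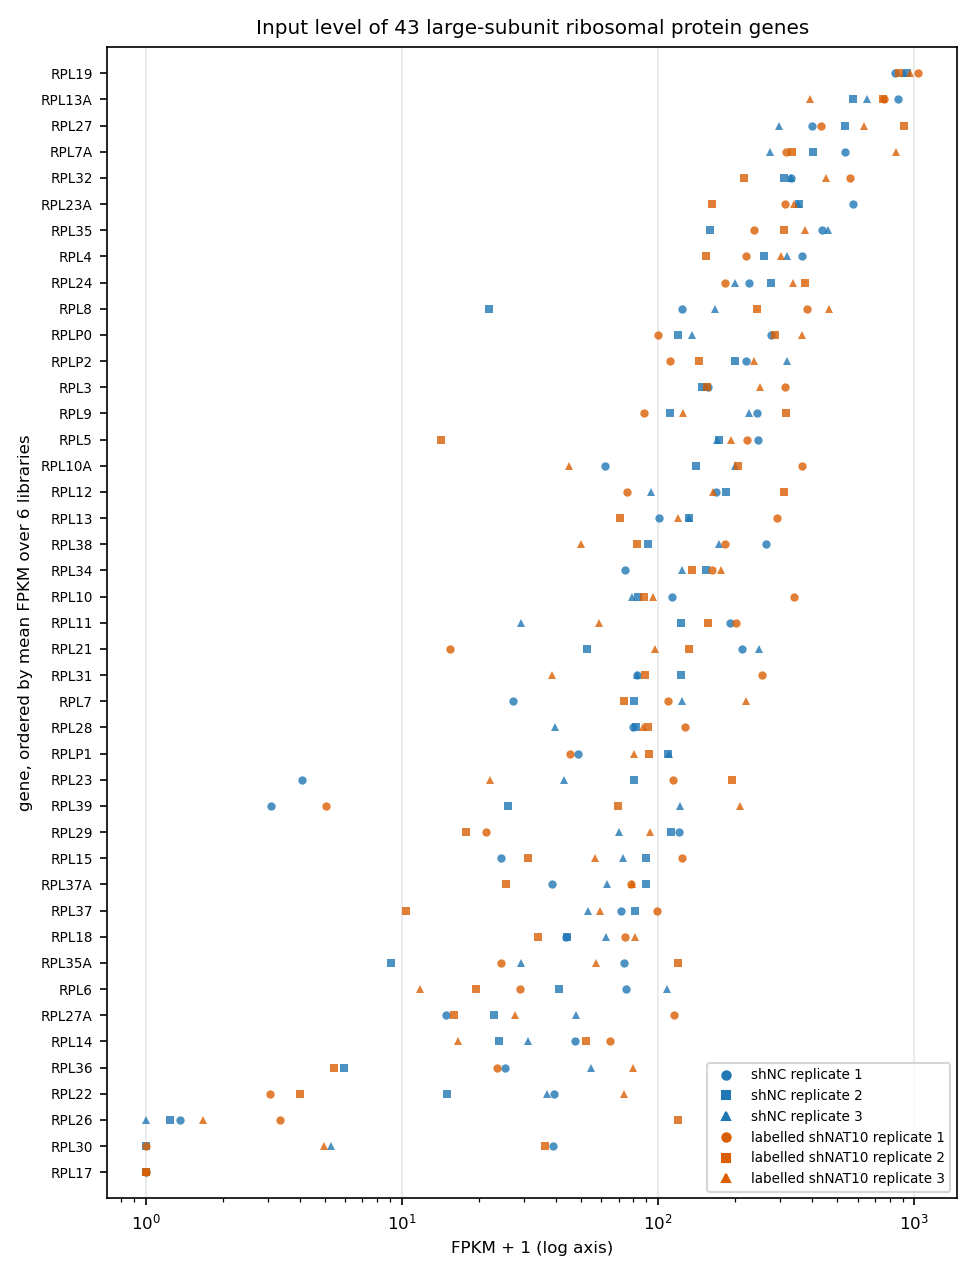
FPKM + 1 (log axis, horizontal) of the 43 genes (vertical, ordered by mean FPKM) in each of the 6 input libraries; colour gives the hairpin label and marker shape the replicate. RPL19 lies between 838 and 1036 in every library, RPL17 is listed at 0 throughout, and the genes at the bottom spread over more of the axis than those at the top.

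Where 2 genes were neighbours in this order, their levels seldom stood apart. Of 41 neighbouring pairs, 2 differed in mean log2(FPKM + 1) by more than their pooled replicate SD. Neighbours in a sorted list are close by construction, so this count says little about the order of genes further apart. The order also depends on the length by which the authors divided. Recovered gene lengths ran from 1501 to 8626 nt with a median of 3265 nt, and fragments scaled by library alone put RPL4, a protein of the tunnel wall, into the 6 highest, with 5 of the 6 highest in common.

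The spread between replicates was wider than counting alone gives. A value rested on 0 to 7363 fragments, with a median of 1442 in shNC and 597 in the shNAT10-labelled libraries. Counting alone gives a median coefficient of variation (CV) of 2.69% and 4.06%, and the replicates' own median CV was 36.6% and 59.1%. The replicate CV was over 3 times the counting CV in 39 of 42 genes in shNC and in 42 of 42 in the other group. RPL3, a protein that reaches toward the peptidyl transferase centre, was one of the exceptions, at 155, 147 and 153 in shNC, and was at 311, 154 and 248 in the shNAT10-labelled libraries. RPL39, the small protein within the tunnel, had the widest range among genes above 0 everywhere, at 2.07, 24.9 and 121 against 4.03, 68.9 and 208. Of the 40 genes above 0 everywhere, the highest library was over 10 times the lowest in 9 and under 2 times in 1 (RPL19), with a median of 4.16.

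Protein-coding genes at or above the lower quartile of the large-subunit genes' mean FPKM had close to the same median spread. That set has no upper limit, and it includes the large-subunit genes above the quartile but not those below it. The median SD of log2(FPKM + 1) over the large-subunit genes was 0.57 in shNC and 0.95 in the shNAT10-labelled libraries. It was 0.62 and 0.92 over 372 protein-coding genes at a mean FPKM of at least 62.4, the lower quartile of the large-subunit genes, and 1.63 and 1.61 over protein-coding genes at 1 or more. Values listed at 0 made up 1.19% (3 of 252), 2.11% and 34.5% of these 3 sets. Small-subunit genes had median SDs of 0.57 and 0.66.

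**Figure D3:**
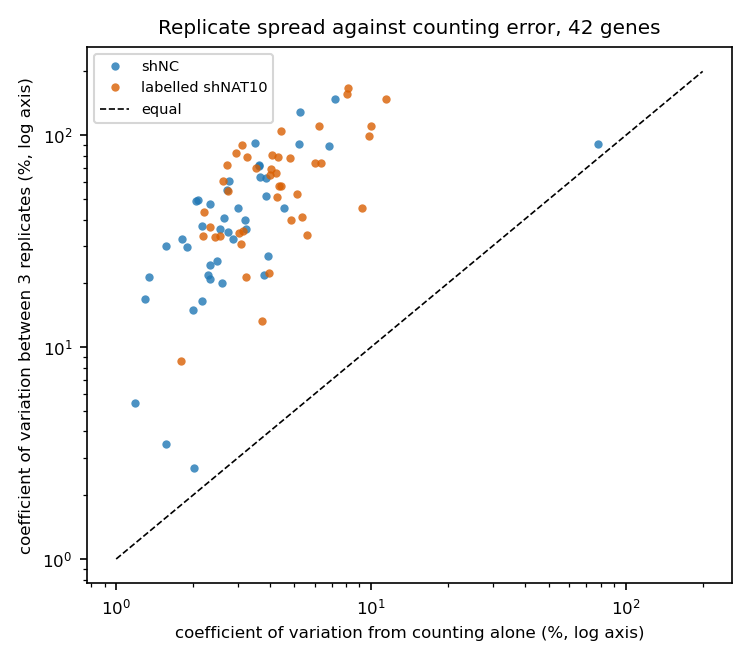
Coefficient of variation between the 3 replicates of a group (%, log axis, vertical) against that from counting fragments alone (%, log axis, horizontal), for 42 genes in each hairpin group; the dashed line marks equality. Nearly all points lie far above the line, with medians of 36.6% against 2.69% in shNC and 59.1% against 4.06% in the shNAT10-labelled libraries; the point at the right near the line is RPL26 in shNC, with 0 to 3 fragments a library.

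No large-subunit gene passed the test between the hairpin groups. With limma on log2(FPKM + 1) and Benjamini-Hochberg adjustment over 10517 genes, 0 of 42 passed an adjusted p of 0.05, where 20 genes (0.190%) passed over the whole table. Adjusted p-values ran from 0.754 to 0.997. At an unadjusted p under 0.05 there was 1 gene of 42, RPL8, against a background of 3.70%. Differences, given as the shNAT10-labelled libraries minus shNC, were positive for 26 genes and negative for 16, and 21 lay within 0.5 of 0. Their median was 0.16, beside -0.49 over all genes tested, -0.47 over protein-coding genes and 0.18 over small-subunit genes. It was 0.23 over the 372 protein-coding genes at a mean FPKM of at least 62.4, large-subunit genes included. Over the 2381 genes above 0 in all 6 libraries it was 0.02. On the TPM scale and after quantile normalization the large-subunit median turned to -0.12 and -0.05, while the median of all genes tested moved to -0.74 and -0.08. The intervals were wide: the median SE was 1.07, the narrowest half-width of a 95% interval was 0.98 and the widest 3.68, and 41 of 42 intervals held 0.

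RPL8, a protein of the core beneath the peptidyl transferase centre, was at 123, 20.9 and 165 in shNC, against 381, 243 and 464 in the shNAT10-labelled libraries. Every library of the latter group stood above every shNC library. The difference was 2.20 on the log2 scale (SE 0.95, 95% interval 0.33 to 4.06, adjusted p from limma 0.754). Without shNC replicate 2, its lowest library, the difference was 1.29 and no longer had an unadjusted limma p under 0.05 (adjusted p 0.794), and without shNAT10 replicate 3 it was 1.99 (adjusted p 0.787), again with an unadjusted p above 0.05.

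Groups that did not overlap were found for 5 of the 42 genes. The shNAT10-labelled libraries were the higher for 3 (7.14%: RPL8, RPL28 and RPL26), against 2.89% of genes tested, and the lower for 2 (4.76%: RPL6 and RPL23A), against 6.72%. RPL28 was at 78.5, 80.7 and 38.6 against 126, 90.1 and 86.6, a log2 difference of 0.66 (SE 1.16). RPL6 was at 74.2, 39.9 and 107 against 27.8, 18.5 and 10.7, which was the largest negative difference, -1.89 (SE 1.42, adjusted p from limma 0.754). RPL26 had the largest positive one, 2.88 (SE 1.87). Without replicate 2 labelled shNAT10 its mean FPKM fell under 1 and it left the test. RPL23A, whose levels are given above, differed by -0.69 (SE 0.74).

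The groups overlapped for the other large differences. RPL23 was at 3.07, 79.1 and 41.7 against 113, 194 and 21.1 (log2 difference 1.71, SE 1.38). RPL35A, mutated in some families with Diamond-Blackfan anaemia, was at 72.8, 8.08 and 28.1 against 23.4, 119 and 56.1 (1.04, SE 1.41). RPL7 was at 26.0, 79.3 and 123 against 108, 72.8 and 220 (0.91, SE 1.14), and RPL39 followed with 0.97 (SE 1.51). Among the lower ones, RPL29 was at 120, 111 and 69.4 against 20.3, 16.8 and 92.1 (-1.58, SE 1.28), where replicates 1 and 2 labelled shNAT10 were low and replicate 3 was not. RPL22, which also binds viral and cellular RNAs outside the ribosome, showed the same arrangement, at 38.1, 14.0 and 35.7 against 2.06, 3.00 and 72.6 (-1.53, SE 1.66). RPL21 was at 211, 51.8 and 246 against 14.4, 131 and 96.5 (-1.27, SE 1.14). RPL38, linked to selective translation of Hox mRNAs, was at 263, 89.9 and 171 against 182, 81.9 and 48.8 (-0.81, SE 1.04). Several of these differences moved when 1 library was left out: without shNC replicate 1 that of RPL23 was 0.43, that of RPL39 -0.43 and that of RPL7 0.28, without shNC replicate 2 that of RPL35A was 0.25, and without shNAT10 replicate 1 that of RPL21 was -0.31 and that of RPL22 -0.70. Without shNAT10 replicate 3 that of RPL38 was -0.38. The genes summarised without library values in these comparisons, RPL4, RPL9, RPL10, RPL10A, RPL15, RPL31, RPL35 and RPL37A, had mean FPKM from 61.3 (RPL37A) to 328 (RPL35) and differences from -0.52 (RPL4) to 0.64 (RPL10, a protein added in the last steps of subunit assembly), each with overlapping groups.

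**Figure D4:**
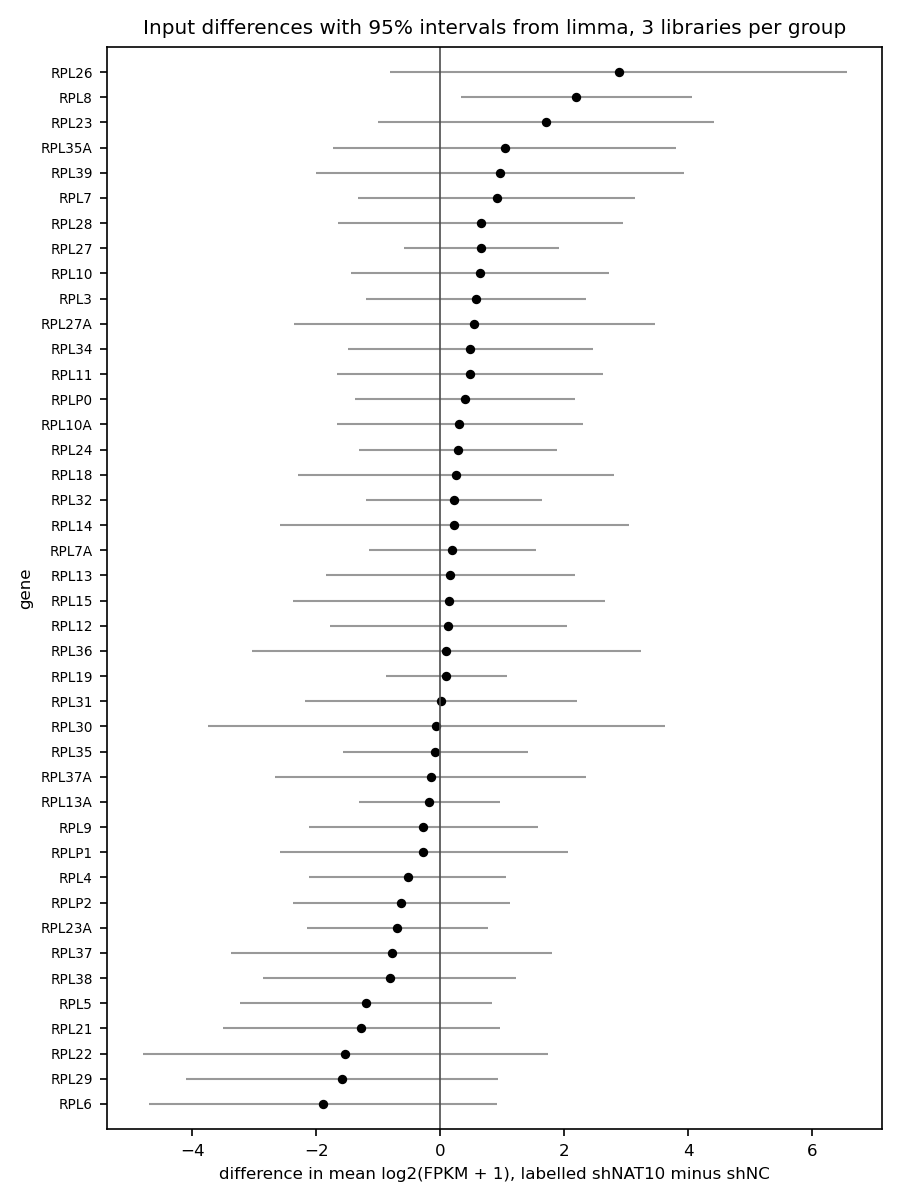
Difference in mean log2(FPKM + 1), shNAT10-labelled libraries minus shNC (horizontal), for 42 genes (vertical, sorted); points are limma estimates and bars their 95% intervals, 3 libraries per group. Estimates run from -1.89 (RPL6) to 2.88 (RPL26), and only the interval of RPL8 lies wholly on one side of 0.

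RPL5 and RPL11 travel with 5S ribosomal RNA and, when subunit assembly is disturbed, bind MDM2, the ligase that destroys p53. RPL5 was at 244, 171 and 169 in shNC, against 222, 13.2 and 191 in the shNAT10-labelled libraries. Replicate 2 alone was low, and the log2 difference of -1.19 (SE 1.03) became 0.10 without it. RPL11 was at 190, 122 and 28.1 against 200, 156 and 57.6 (0.48, SE 1.09), with replicate 3 the lowest in each group. Of 11 genes of the MDM2 and p53 arm 10 were tested, 0 passed, and their median difference was 0.25 (-0.31 without shNAT10 replicate 2). NPM1 (90.0, 99.7 and 100 against 132, 119 and 52.3) and nucleolin, NCL (89.3, 62.2 and 64.4 against 131, 35.6 and 157), both nucleolar proteins, were the most abundant of them. CDKN1A, a p53 target chosen after its values were seen, was at 1.07, 0 and 0 against 5.66, 9.63 and 39.7, without overlap of the groups (log2 difference 3.48, SE 1.88, adjusted p from limma 0.754).

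The stalk, which recruits the elongation factors, is built from the products of 3 genes. RPLP0, its base, was at 274, 119 and 134 against 98.7, 284 and 362 (log2 difference 0.40, SE 0.90). RPLP1 was at 47.6, 108 and 109 against 44.4, 91.2 and 79.1 (-0.27, SE 1.18). RPLP2 was at 219, 199 and 316 against 110, 143 and 236 (-0.63, SE 0.89). The groups overlapped for each of the 3. RPLP1 and RPLP2, which pair in the stalk, had mean FPKM of 79.9 and 204 over the 6 libraries, from recovered lengths of 3271 and 1955 nt; scaled by library alone, their fragments were at 261 and 398. The factors that the stalk serves were in the list of TOP regulators and elongation partners, of which 15 were tested, 0 passed, and the median was -0.30. EEF2 was at 895, 656 and 892 against 979, 713 and 890 and EEF1A1 at 421, 284 and 397 against 335, 137 and 547.

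The authors' deposited table of differential ac4C peaks held 12 peaks in 11 of the 43 genes. That was 25.6% of the genes, beside 19.0% of the protein-coding genes at a mean FPKM of 1 or more. Among all protein-coding genes at 62.4 or more, large-subunit genes included, it was 26.6%. The share was thus near that of abundant protein-coding genes as a whole. Of 32 small-subunit genes 6 (18.8%) had a peak. Mean FPKM had a median of 137 over the genes with a peak and 126 over the 31 measured genes without one. The table holds only peaks past the authors' test, with a differential FDR of at most 0.0501. It does not say which hairpin is the numerator of the log2 change, so signs are given without a direction in the cells.

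Of the 12 peaks, 11 had, in the authors' deposited table, a negative log2 change (91.7%), beside 61.7% of all 2364 peaks. Small-subunit genes were alike in this, with 8 of their 9 peaks negative. The size of the change was a median of 2.65 in absolute value for the 12 peaks and 4.81 over the authors' deposited table. Their fold enrichment had a median of 3.08, beside 10.5. Both measures were thus lower than the medians of the whole list. Of 48 listed peaks with a log2 change within 1 of 0, 2 were in this set.

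The lowest value among them was that of RPL27, whose peak at chr17:43000003-43002929 (GRCh38, plus strand, 3 blocks of 269 nt in all) had a log2 change of -4.97 in the authors' deposited table. Peaks in RPL28 (-4.51, chr19:55389569-55389719), RPL34 (-3.62, chr4:108622607-108622756) and RPL6 (-3.05, chr12:112408221-112408370) came next in the authors' deposited table. The RPL34 peak had the highest fold enrichment of the 12 in the authors' deposited table, 25.1. These 4 peaks were annotated as exon, neither coding sequence nor UTR. In input FPKM, RPL34 was at 72.9, 153 and 123 in shNC, against 161, 134 and 175 in the shNAT10-labelled libraries, which differed by 0.48 on the log2 scale (SE 1.00).

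RPL7A, which hosts small nucleolar RNAs in its introns, was the only one with 2 peaks, and they had opposite signs. The upstream peak, chr9:133349409-133350038 in 2 blocks, had a log2 change of -3.0 and a fold of 2.21 in the authors' deposited table, and it overlapped SNORD24, one of the hosted small nucleolar RNAs. The downstream peak, chr9:133350247-133350427, had a log2 change of 3.82 and a fold of 1.94 in the authors' deposited table, the only positive one of the set. Both were annotated as exon.

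The remaining peaks had smaller changes. In the authors' deposited table they were RPL35A at -2.30, RPL12 at -2.15, RPL13 at -1.82, RPL18 at -1.37, RPL32 at -0.332 and RPL37 at -0.236. RPL12, a protein of the stalk base, had the lowest fold, 1.15, and RPL13 a fold of 12.6 in the authors' deposited table. Input FPKM of RPL12 was 167, 183 and 93.1 against 74.3, 309 and 163, that of RPL13 99.8, 131 and 131 against 290, 69.9 and 119, and that of RPL18 42.6, 43.1 and 61.5 against 73.2, 32.8 and 79.9. RPL37 was at 70.3, 80.0 and 52.2 against 98.1, 9.33 and 58.1. For all of these 4 genes the input groups overlapped. Over the genes with a peak the median input difference was 0.23, and over those without it was 0.10.

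**Figure D5:**
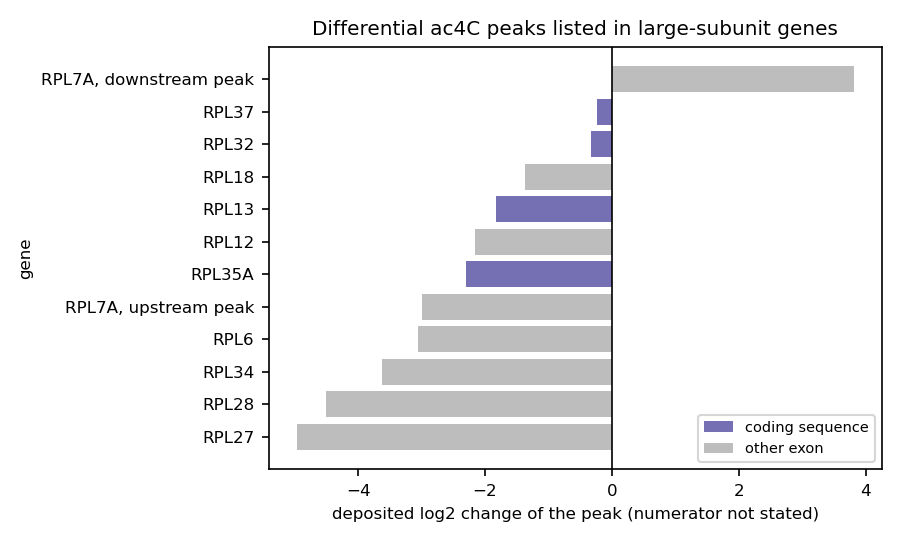
Log2 change of each of the 12 differential ac4C peaks in large-subunit genes (horizontal, from the authors' deposited table, numerator not stated), one bar per peak (vertical), coloured by annotated class. RPL27 lies at -4.97, RPL37 at -0.236, and the downstream peak of RPL7A at 3.82 is the only positive bar.

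By the class given in the authors' deposited table, 4 of the 12 peaks lay in coding sequence (RPL35A, RPL13, RPL32 and RPL37) and 8 in other exon sequence, beside 59.5% and 15.4% of all peaks. None of the 12 was annotated to a UTR, a class that held 21.3% (3′) and 3.72% (5′) of the authors' deposited table. All 12 lay within the RefSeq gene, and 9 had their centre in the first 50% of the gene's span. The authors' deposited table counted sites of a repeated CXX motif, and 5 of 12 peaks held one, beside 62.6% of all peaks. Over 2730 nt there were 7 sites, 2.56 per 1000 nt, beside 5.62 per 1000 nt in the authors' deposited table.

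Other genes of the ribosome and its assembly were compared in the same fit, where the medians of the small-subunit, assembly and chaperone lists change sign with the scaling. Of 31 small-subunit genes tested 0 passed; RPS2 (974, 934 and 1305 against 2625, 1613 and 1190) and RPSA (562, 382 and 441 against 627, 744 and 796) were the most abundant. Among 39 of 45 factors of 60S assembly and export that were tested 0 passed, with a median of -0.17 (0.29 without shNAT10 replicate 2). NOP16, a nucleolar assembly factor, was at 362, 221 and 397 against 588, 173 and 578, and RSL24D1, a stand-in for RPL24 on the immature subunit, at 32, 131 and 101 against 57.6, 3.11 and 148. RPL24 itself, which takes that place late in assembly, was at 226, 275 and 199 against 181, 374 and 336. Of 11 chaperones and escorts tested 0 passed, with a median of 0.09 that ran from -1.35 without shNAT10 replicate 3 to 0.97 without replicate 1; BTF3 was at 0.479, 88.6 and 57.6 against 46.7, 14.3 and 278, and NACA, its partner in the nascent chain complex, at 43.3, 109 and 94.0 against 13.8, 66.3 and 76.8. Of 7 other large-subunit genes and paralogs outside the 43 that were tested 0 passed, with a median of -0.78. RPL36AL, the paralog of RPL36A, was at 94.3, 127 and 151 against 30.9, 26.8 and 1.12 (log2 difference -3.32, SE 1.40, adjusted p from limma 0.754).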

How the data were processed

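The authors deposited gene levels as FPKM for 6 input libraries. Per the file headers, the authors' peak table gave each peak a fold enrichment (a ratio), a peak-call p-value, a log2 change and, as scores, the log10 of the differential p and FDR. cutadapt 2.5, HISAT2 2.1.0 and HOMER 4.10.4 were named, with no role, per the submitters' processing notes, together with a human (GRCh38) and a mouse build; which program counted fragments or called peaks, and from which annotation, was not given in the sources read here. Peak positions were read as GRCh38 and are printed counting from 1. Columns named sh were taken as shNAT10 by elimination. Levels of the immunoprecipitated libraries were not analysed here.

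Differences were fitted with limma 3.58.1 (R 4.3.3, trended eBayes) on log2(FPKM + 1) where a gene's mean FPKM reached at least 1, and adjusted by Benjamini-Hochberg over all genes tested at 0.05. SEs draw mostly on genes of like level (212.6 prior degrees of freedom). A fold on this scale understates the change of low genes. Whole fragments were recovered from FPKM with lengths of mitochondrial genes, and were used for depth, counting error and voom. Fragments recovered in this way carry no mark of PCR copies, so counting error is to be read as a lower limit. Same-numbered replicates deviated independently (correlations 0.00, -0.02 and 0.01 across genes) and were not treated as pairs. Both steps were tested on simulated data. For limma the simulated replicates spread less than most genes here and did not differ in depth, so that test does not cover these conditions.

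Genes given in full were the 6 highest and 6 lowest, the 6 largest differences each way, those at 0 in a library, those with a peak, the stalk genes, RPL5 and RPL11, and from each other list the 2 most abundant; RPL3, RPL9, RPL24 and RPL36AL were added after their values were seen. Values of some listed genes are not reported here. Members were picked by name, but the family and the lists were taken up with earlier results of these data known. Alternatives were other pseudocounts, filters, scalings and eBayes settings, protein-coding genes alone, a replicate block, each library left out and other peak and TOP limits. Added after seeing the data were voom, genes above 0 in all libraries, and leaving out replicates 2 and 3 labelled shNAT10.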

Additional observations from a re-analysis of the deposited data

How the results depend on the processing

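No large-subunit gene passed the test under any of 21 alternatives, and 16 genes kept the sign of their difference in every alternative that tested them. RPL26, among these, was not tested without shNAT10 replicate 2 or without replicates 2 and 3. The number of genes called over the whole table, 20, was 7 at a pseudocount of 0.01, 3 at 10, 10 at a mean FPKM of at least 5, 6 among protein-coding genes alone, 115 by voom, and 1 to 34 with each library left out (1 without any shNC library, 12 without shNAT10 replicate 1 and 34 without replicate 2). It was 0 with no filter, without trend, without shNAT10 replicates 2 and 3, and for genes above 0 in all 6 libraries, where limma gave 340, 480, 1139 and 143 at an unadjusted p under 0.05. A replicate block gave 21 genes and 0 large-subunit genes, and changed no other call. At an unadjusted p under 0.05 voom gave 3 large-subunit genes of 42 (RPL8, RPL23 and RPL27), 7.14% beside 14.0% of all genes tested, and limma without shNAT10 replicates 2 and 3 gave 6 of 41 beside 11.7%. The median difference was -0.12 on the TPM scale (16 genes positive, 26 negative) and -0.05 after quantile normalization (19 and 23). It was 0.16 (26 and 16) in the main fit and 0.04 to 0.19 with each library left out. The TPM scale divides each library by its summed FPKM, 468920 to 532596 in shNC and 556564 to 712302 in the other group. That division lowers differences of abundant genes by a nearly constant amount (RPL19 from 0.10 to -0.17, RPL8 from 2.20 to 1.93). Why quantile normalization moved the median was not tested. The share of FPKM, 1.37% over all libraries, was 4.55% of protein-coding nuclear FPKM. At a fold of at least 4, 4 genes had a peak, and by RefSeq position 12 did, RPL27A being the one added. Medians of other lists changed sign with scaling too: on the TPM scale -0.08 for small-subunit genes and -0.30 for chaperones and escorts, and after quantile normalization 0.07 for assembly factors. The planned protein features were not run. With 3 libraries a group, unadjusted 95% intervals had half-widths of 0.98 to 3.68, and the adjusted test needs larger differences than these.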

Other observations

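Processed pseudogenes, copies of these mRNAs in the genome, can share reads with their parent genes. The gene table listed 675 of them by symbol, 70 were above 0 in some library and 6 in all 6, and 26 of the 43 genes had a copy above 0. Copies made up 2.12% to 10.1% of the summed FPKM of copies and parents, with the highest share in shNAT10 replicate 2. RPL9P9 was at 196, 67.9 and 138 in shNC, against 108, 87.5 and 420 in the shNAT10-labelled libraries. RPL9, its parent, was at 241, 110 and 225 against 86.8, 315 and 124. RPL13AP5 was at 12.1, 4.48 and 18.1 against 5.88, 302 and 4.09, so a single library held nearly all of its level. RPL23AP95 was listed at 0 in 5 libraries and at 259 in shNAT10 replicate 2, where RPL23A had its lowest value, 161. Of 32 copies tested with limma, 0 passed. How reads that match a gene and its copy were assigned the sources read here do not say, so levels of RPL9, RPL13A and RPL23A are uncertain to that extent. These 3 copies were chosen as the most abundant ones after their values were seen.

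By RefSeq coordinates 19 of the large-subunit genes hold 40 small nucleolar RNAs, which guide modification of ribosomal and other RNA. Of these, 33 had a symbol of their own in the gene table, and 2 of them were above 0. SNORA3B, within RPL27A, was at 47.4, 34.9 and 66.8 FPKM in shNC, against 115, 173 and 89.2 in the shNAT10-labelled libraries, on 14 to 34 fragments a library. The groups did not overlap, and the log2 difference was 1.32 (adjusted p from limma 0.754). The authors' deposited table also held a differential ac4C peak named for SNORA3B, chr11:8685439-8685569 (GRCh38, plus strand), with a log2 change of -3.14 and a fold of 3.5, so RPL27A is another large-subunit gene whose span holds a listed peak although the peak is not named for it. SNORD83A, within RPL3, held 1 fragment in 1 library.

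RPL26L1, the paralog of RPL26, was at 0.762, 0 and 111 in shNC, against 3.09, 33.8 and 174 in the shNAT10-labelled libraries. RPL22L1, the paralog of RPL22, was at 0, 0.262 and 35.3 against 0, 3.44 and 0. RPL36A, RPL10L and RPL39L were listed at 0 in all 6, and how fragments shared by overlapping genes were counted is not stated for these either. EBNA1BP2 (33.0, 26.2 and 67.3 against 0, 3.19 and 0), NIP7 (35.6, 22.5 and 31.6 against 0, 0 and 0) and NMD3 (1.46, 0 and 0 against 57.3, 99.5 and 0.343) were the 3 of 39 tested 60S assembly factors at an unadjusted limma p under 0.05 (3.70% of all genes tested were), with an adjusted p of 0.754 each. These paralogs and factors were picked after their values were seen.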
